A study of Mus musculus with 2 samples.

Results

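The genes described here are 35 interferon-stimulated genes, listed by symbol and looked up in 2 single-cell libraries of the mouse optic nerve. The files hold 34 of them among 32285 genes, since no row carries the symbol Mx1, and all 34 had at least 1 UMI (unique molecular identifier, 1 per captured RNA molecule) in each library. Both libraries came from Nf1-OPG mice (Nf1flox/neo; GFAP-Cre), which carry a neomycin cassette in one Nf1 allele in every cell and lose the other allele in neuroglial progenitors, where the GFAP promoter drives Cre. The vancomycin library came from mice given this antibiotic from 6 to 12 weeks of age. The other library carries the treatment label Control, and PBS is what the design text gives to the mice without vancomycin. Per the labels, the nerves came from a pool of 10 mice aged 12 weeks, so each group is 1 library, and the same protocol text also describes sorted meningeal dura. There was no replicate spread and no test, and every interval below is a 95% interval that covers counting error only.

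Type I interferons are secreted when cells sense viral or misplaced nucleic acid, and they bind a receptor made of Ifnar1 and Ifnar2. The receptor's kinases phosphorylate Stat2, which joins Irf9 in a complex that binds the interferon-stimulated response element in the promoters of target genes. The targets include antiviral effectors, sensors that amplify the response and inhibitors that end it. Many of them also respond to interferon gamma, which T cells and NK cells secrete, so a high level of these genes does not by itself name the ligand. In brain and optic nerve, groups of microglia, T cells and glia that express these genes together are known from infection, injury, ageing and tumours.

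The response element was searched in RefSeq promoters (GRCm38.p6, 250 bases before to 50 bases after the start), because it is the sequence the listed genes are known to share. The motif was GAAA, any 2 bases and GAAA again, looked for on both strands with overlapping matches allowed. Of the 25 members matched to the table by symbol, 13 (52.0%) held at least 1 match, against 1079 of 27025 genes (3.99%) in the whole table. Below are the promoters of 4 genes with matches and of Ifi47, which had none in this window, read 5′ to 3′ on the strand of the gene with matched letters in capitals.
Isg15 (chr4:156200769-156201068, minus strand): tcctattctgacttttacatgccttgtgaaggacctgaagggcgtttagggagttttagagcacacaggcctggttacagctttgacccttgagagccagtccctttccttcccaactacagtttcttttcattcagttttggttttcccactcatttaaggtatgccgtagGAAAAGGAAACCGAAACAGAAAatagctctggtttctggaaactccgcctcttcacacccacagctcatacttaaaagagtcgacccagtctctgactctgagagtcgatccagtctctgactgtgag
Ifit3 (chr19:34583279-34583578, plus strand): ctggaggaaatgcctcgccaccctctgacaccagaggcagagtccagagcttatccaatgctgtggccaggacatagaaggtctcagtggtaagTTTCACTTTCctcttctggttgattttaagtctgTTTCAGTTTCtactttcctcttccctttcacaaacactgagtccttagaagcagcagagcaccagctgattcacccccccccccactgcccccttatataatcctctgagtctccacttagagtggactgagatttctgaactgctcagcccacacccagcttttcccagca
Ifit3b (chr19:34607707-34608006, plus strand): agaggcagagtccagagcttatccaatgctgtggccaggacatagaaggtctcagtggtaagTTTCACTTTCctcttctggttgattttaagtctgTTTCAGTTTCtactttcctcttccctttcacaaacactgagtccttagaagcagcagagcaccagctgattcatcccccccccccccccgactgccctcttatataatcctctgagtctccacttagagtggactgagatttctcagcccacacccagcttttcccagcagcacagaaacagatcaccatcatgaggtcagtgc
Rsad2 (chr12:26456403-26456702, minus strand): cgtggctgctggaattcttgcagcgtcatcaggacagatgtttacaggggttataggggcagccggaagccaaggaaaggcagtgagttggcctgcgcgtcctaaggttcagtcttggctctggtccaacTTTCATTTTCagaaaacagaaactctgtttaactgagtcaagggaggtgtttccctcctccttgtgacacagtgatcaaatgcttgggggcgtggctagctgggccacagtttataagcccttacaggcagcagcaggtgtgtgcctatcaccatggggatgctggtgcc
Ifi47 (chr11:49076337-49076636, plus strand): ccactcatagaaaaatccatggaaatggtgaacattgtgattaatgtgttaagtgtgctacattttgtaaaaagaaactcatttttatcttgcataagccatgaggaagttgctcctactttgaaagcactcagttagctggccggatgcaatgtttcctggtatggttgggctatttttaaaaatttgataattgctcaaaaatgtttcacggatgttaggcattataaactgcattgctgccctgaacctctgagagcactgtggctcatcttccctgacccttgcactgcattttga
Isg15 held 3 overlapping matches, which began 78, 72 and 66 bases before its start. Ifit3 held 2 matches, at 156 and 122 bases before its start, and Ifit3b held the same letters at 188 and 154 bases before its own. The transcripts of Ifit3 and Ifit3b are 97.8% identical over 1700 bases, and those of Oas1a and Oas1g 97.5% over 1860 bases, so the split of reads within each pair is uncertain.

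The vancomycin library held 144451114 UMIs in 16596 barcodes and the control library 25609899 UMIs in 4272 barcodes. After filtering, 15726 vancomycin cells with a median of 6970 UMIs and 4108 control cells with a median of 4870.5 UMIs remained, and marker gates placed 81.1% and 83.7% of them in a cell type. The libraries shared 100 barcodes (2.34% of the control barcodes). The makeup differed, since 4000 vancomycin cells and 0 control cells passed the oligodendrocyte gate, and 190 and 6 passed a gate for pituitary hormone cells. The libraries were also processed with different software versions, and treatment, makeup and processing cannot be told apart. Erythroid markers inside other gates differed too, with 16.7 and 0.472 UMIs per 10000 in vancomycin and control T cells, and 31.6 and 0.451 in vancomycin and control microglia. Of the 8 erythroid markers, 5 were higher in vancomycin than in control T cells and 6 in microglia, and 2 had no UMI in the vancomycin cells of either type. Within vancomycin cells their level was 20.7 in high and 13.9 in other T cells, and 26.1 in high and 33.7 in other microglia, by the rule for high cells given below. Hormone cell markers took 3.40 and 0.0803 UMIs per 10000 in vancomycin and control microglia, and 0.420 and 0.0804 in T cells. Within vancomycin cells they took 0.151 in high and 4.65 in other microglia, and 0.284 in high and 0.519 in other T cells. The part of erythroid and hormone cell RNA in the results below was not tested. In types and libraries with at least 50 cells, 8 of 8 of the type's own markers were higher inside the gate than outside. The exceptions were erythroid and hormone cells, with 7 of 8. The gate selects cells on these same markers, so these counts do not test the type names.

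Summed over all kept cells, the 34 genes took 33.0 UMIs per 10000 in the vancomycin library and 32.5 in the control library. Within cell types the values were further apart. A cell was called high when at least 50 of every 10000 of its UMIs came from the 34 genes. In the vancomycin library the share of high cells was 56.1% (47.2 to 64.7) of border-associated macrophages, 44.2% (42.5 to 45.8) of T cells and 42.7% (32.7 to 53.2) of endothelial cells. Type 2, type 1 and mature migratory dendritic cells followed with 41.4%, 36.2% and 35.2%, and the interval of each of these 6 types overlapped that of at least 1 other. Microglia (22.5%), oligodendrocytes (10.6%), B cells (5.69%) and plasma cells (3.81%) had lower shares. Hormone cells, which are not immune cells, had 1 high cell of 190 (0.526%, 0.0133 to 2.90) at a median of 11889.5 UMIs, against medians of 4099 in vancomycin T cells and 6341.5 in vancomycin microglia. Among types with few cells, 27 of 32 vancomycin and 16 of 17 control monocytes were high, as were 32 of 35 vancomycin plasmacytoid dendritic cells, the blood cells best known for secreting interferon alpha.

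**Figure D1:**
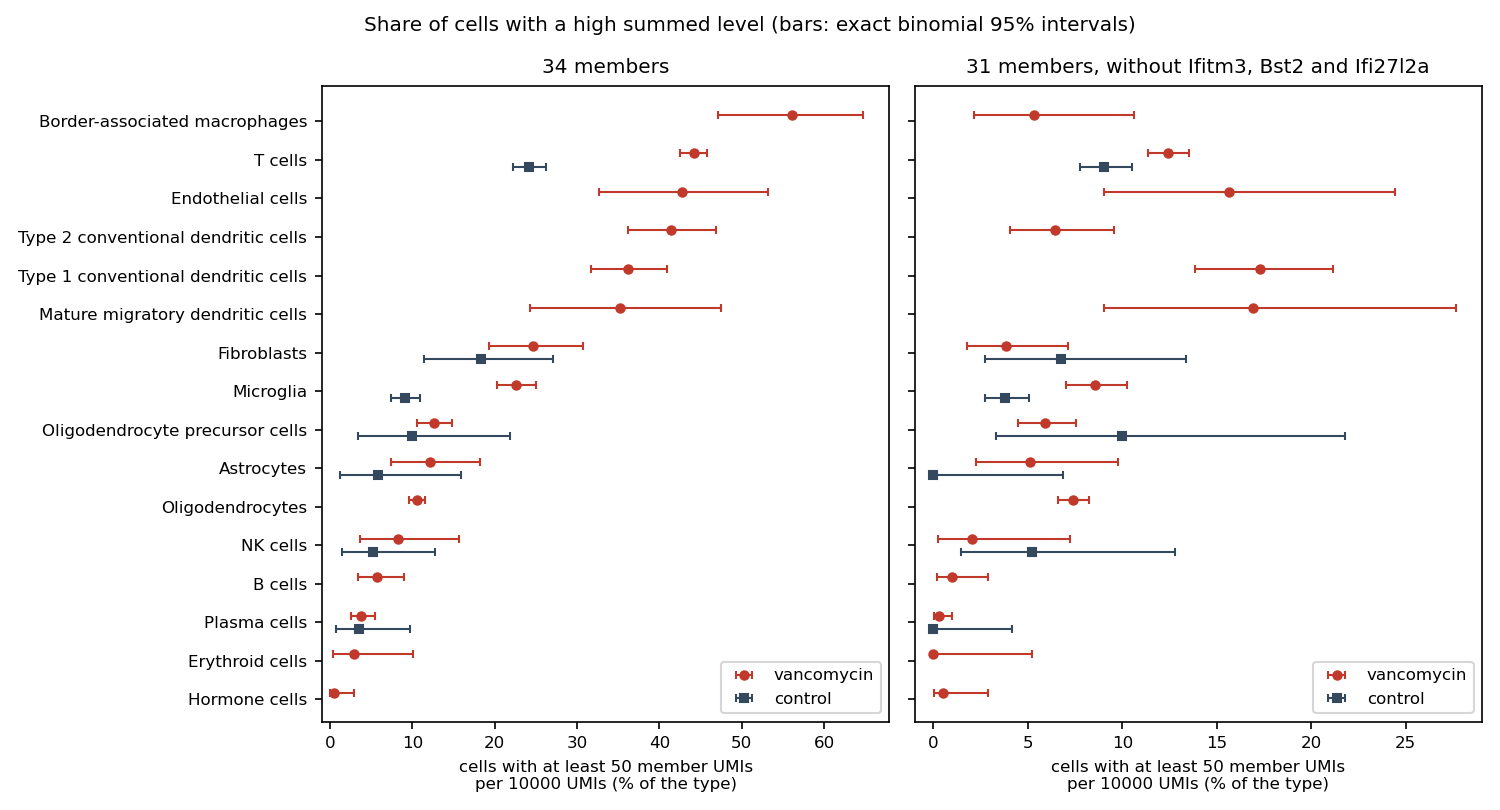
Share of cells with a high summed level in each gated type with at least 50 cells in that library, for all 34 genes (left) and for 31 genes without Ifitm3, Bst2 and Ifi27l2a (right), with exact binomial 95% intervals for counting error. T cells and microglia had higher shares in the vancomycin library on both panels, and the share in vancomycin border-associated macrophages was 56.1% with and 5.30% without these 3 genes.

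Which genes made up the sum differed by type. In vancomycin border-associated macrophages, type 2 dendritic cells, endothelial cells and fibroblasts, Ifitm3, a membrane protein that blocks viral entry, had a level of 2158, 2809, 2722 and 1879 CPM (UMIs of the gene per 1000000 UMIs of the type). UMIs mark molecules at their 5′ end, so these levels were not divided by gene length. In T cells Ifi27l2a, a small interferon-inducible membrane protein, took 49.0% of all member UMIs in the vancomycin library and 39.7% in the control library. Without Ifitm3, Bst2 and Ifi27l2a, which many cells express without interferon, the highest vancomycin shares of high cells among types with at least 50 cells were those of type 1 dendritic cells (17.3%), mature migratory dendritic cells (16.9%) and endothelial cells (15.6%). Among vancomycin types of at least 50 cells, endothelial cells had the highest CPM for Ifit1 (244), Ifit2 (148), Ifit3 (232), Ifit3b (196), Rtp4 (253), Slfn5 (325), Irf9 (100.4), Cmpk2 (74.1), Ifi44 (64.5) and Ifih1 (81.3). Type 1 dendritic cells were highest for Irf7 (577 CPM), the transcription factor that amplifies interferon output, Stat2 (132 CPM) and Ifi35 (206 CPM). Erythroid cells were highest for Isg20 (535 CPM), an RNA exonuclease, and Rsad2 (249 CPM), whose product viperin makes a chain-terminating nucleotide, while their summed level was 12.6 per 10000. In hormone cells Ifit1 was the highest of the 34 genes with 85.1 CPM, although their summed level was 4.14 per 10000.

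In T cells (3553 vancomycin and 1745 control cells) the summed level was 57.6 and 43.5 per 10000. The ratio of vancomycin over control was 1.32 (1.31 to 1.34), a log2 ratio of 0.40. Less the median of the other compared types the log2 ratio was -0.21, so T cells lay below the middle of the compared types. The share of high T cells was 44.2% (42.5 to 45.8) in the vancomycin library and 24.2% (22.2 to 26.3) in the control library. With each cell thinned to 1000 UMIs, which left out 15 and 33 cells, the shares were 46.9% and 29.9%. Without Ifitm3, Bst2 and Ifi27l2a they were 12.4% (11.3 to 13.5) and 9.05% (7.75 to 10.5), and the summed level was 25.2 and 23.2 per 10000. Most of the difference in the sum sat in those 3 genes.

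On the scale of log2(CPM + 10), 1 of 34 members was past 2-fold upward in vancomycin T cells and 0 were past it downward. The count upward was 0 without cells over 2 times the median depth, with DESeq2 size factors, with every cell weighted equally, with 50 CPM added in place of 10, and less the median of the other compared types. With 10 CPM added, 1.92% of all 13258 genes measured in T cells were higher and 0.958% lower. The median log2 ratio was 0.08 for the members and 0.06 for all genes. The interval of the ratio lay above 1 for 15 members and below 1 for 6. The member past the fold was Ifitm3, with 140 CPM in vancomycin and 60.7 CPM in control T cells (log2 ratio 1.09). It was captured in 508 of 3553 and 214 of 1745 cells, and 11.5% and 17.6% of its UMIs came from 5 cells. Inside the T cell gate, border-associated macrophage markers took 0.131 and 0.0284 UMIs per 10000 in vancomycin and control cells. Type 2 dendritic cell markers took 0.685 and 0.424, and monocyte markers 5.48 and 7.14. Their part in the Ifitm3 value was not tested. Ifi27l2a had 2821 and 1728 CPM, a ratio of 1.63 (1.61 to 1.66). Isg15, the ubiquitin-like protein that is attached to other proteins, had 365 and 334 CPM, and Bst2, which tethers budding virus, had 283 and 248 CPM. For these abundant genes the interval left out 1, but the differences were small for Isg15 (1.09-fold) and Bst2 (1.14-fold).

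The effectors that act on RNA and nucleotides did not follow. Summed over 12 such genes the level was 5.32 per 10000 in vancomycin and 5.24 in control T cells, a ratio of 1.02 (0.982 to 1.05). Oas3, which makes the oligoadenylates that activate RNase L, had 25.8 and 46.8 CPM (ratio 0.551, 0.484 to 0.627). Cmpk2, a nucleotide kinase that neighbours Rsad2 on chromosome 12, had 15.5 and 28.7 CPM (0.538, 0.456 to 0.636). Rsad2 itself had 28.6 and 33.9 CPM, Ifit3b 28.9 and 34.6 CPM, and Herc6, the mouse ligase for Isg15, 73.4 and 88.3 CPM. In the same cells Isg20 had 181 and 128 CPM (1.42, 1.33 to 1.51), and Oasl2, a catalytically active relative of the Oas enzymes in mouse, had 7.90 and 2.35 CPM from 145 and 24 UMIs. Effectors of 1 functional class thus lay on both sides of 1.

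The 3 transcription factors among the members were close to level in T cells. Irf7 had 165 and 183 CPM (0.904, 0.853 to 0.958), and Irf9 had 79.7 and 79.3 CPM. Stat2 had 40.6 and 44.6 CPM, with an interval of 0.808 to 1.02. Usp18, which removes Isg15 from proteins and blocks Ifnar2 signalling, stood apart with 58.0 and 35.2 CPM (1.65, 1.46 to 1.86). Slfn5, a Schlafen family gene, had 49.7 and 36.2 CPM (1.37, 1.22 to 1.56). Less the median of the other compared types, Usp18, Ifitm3, Isg15 and Bst2 were on the lower side.

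T cells with at least 1 Cd8 UMI and no Cd4 UMI had a summed level of 45.7 (vancomycin) and 37.0 (control) per 10000, and 32.1% and 20.1% of them were high. For T cells with Cd4 and no Cd8 UMIs the levels were 70.1 and 52.0 per 10000, and the shares 53.5% and 30.4%. Ifi27l2a alone had 1941 and 1295 CPM in the vancomycin and control CD8 cells, and 3810 and 2342 CPM in the CD4 cells. Over 31 genes the shares were 11.4% and 8.30% in CD8 cells, and 11.5% and 8.87% in CD4 cells. The distance between CD4 and CD8 cells within a library was therefore mostly in Ifitm3, Bst2 and Ifi27l2a, and most of that in Ifi27l2a. In vancomycin CD8 and CD4 cells Ifitm3 had 93.5 and 197 CPM, and Bst2 had 259 and 295 CPM.

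**Figure D2:**
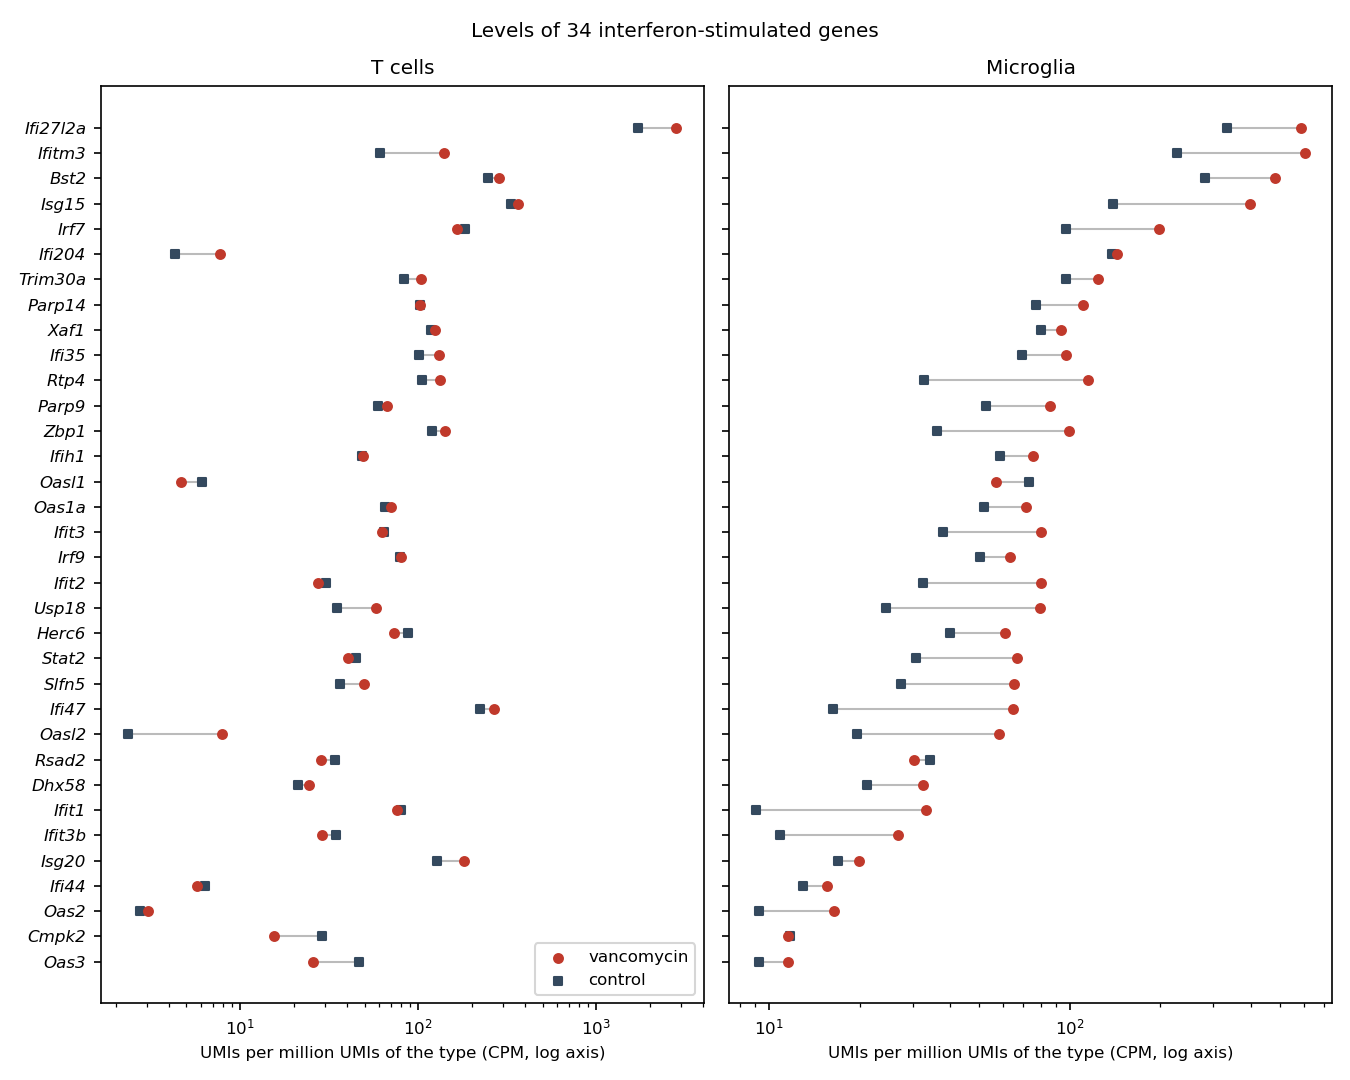
Level of each of the 34 genes in T cells (left) and microglia (right), in CPM on a log axis, with 1 point for the vancomycin and 1 for the control library. In microglia the vancomycin point lies right of the control point for all but Oasl1, Rsad2 and Cmpk2, while in T cells the widest pairs are those of Oasl2 (ratio 3.36), Ifitm3 (2.31), Cmpk2 (0.538) and Oas3 (0.551).

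In microglia (1216 vancomycin and 1114 control cells) most of the list was higher in the vancomycin library. The summed level was 41.6 and 22.6 per 10000, a ratio of 1.84 (1.80 to 1.87), with a log2 ratio of 0.88, or 0.39 less the median of the other compared types. High microglia made up 22.5% (274 of 1216 cells) and 9.07% (101 of 1114 cells). The shares were 26.7% and 11.3% after thinning to 1000 UMIs, and 8.55% and 3.77% over 31 genes. Gpr34, a marker of the gate, had 125 CPM in high and 335 CPM in other vancomycin microglia, and 147 and 457 CPM in control microglia. The other markers are not compared here, and whether the gate left out high cells was not tested. Of 34 members, 10 were past 2-fold upward and 0 downward, where 2.21% of 12106 genes measured in microglia were higher and 1.83% lower. The count upward was 2 with 50 CPM added and 6 less the median of the other compared types. The interval lay above 1 for 27 members and below 1 for 1, and the median log2 ratio was 0.56 for the members and 0.04 for all genes.

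Among the protein modifiers, Isg15 had 398 CPM in vancomycin and 139 CPM in control microglia (2.86, 2.66 to 3.08). Parp9 had 85.9 and 52.5 CPM, Parp14 had 111 and 77.1 CPM, and Herc6 had 60.7 and 39.9 CPM. Parp9 and Parp14 belong to the ADP-ribosyltransferase family. All 4 genes of this class thus had a higher level in the vancomycin library, and the interval left out 1 for each of them.

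Of the 3 membrane and GTPase effectors, Ifitm3 had 603 and 226 CPM (2.66, 2.52 to 2.82) and Bst2 479 and 282 CPM (1.70, 1.61 to 1.79). Ifi47, an immunity-related GTPase that interferon gamma also induces strongly, had 64.7 and 16.4 CPM (3.96, 3.22 to 4.89). That was the highest ratio among the 34 genes in microglia. Its promoter window above held no match to the motif, and neither did the windows of Ifit2, Irf7 and Oasl1.

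The RNA and nucleotide effectors were mixed, with 7 of 12 intervals above 1 and 1 below. Ifit1, which binds viral RNA, had 33.3 and 9.07 CPM (3.67, 2.78 to 4.91), Ifit2 had 80.2 and 32.6 CPM, Ifit3 had 80.1 and 37.8 CPM, and Oasl2 had 58.0 and 19.6 CPM. Oasl1, known in mouse as a translational inhibitor of Irf7, was the member below 1, with 56.6 CPM in vancomycin and 73.0 CPM in control microglia (0.775, 0.683 to 0.879). Of the 491 control UMIs of Oasl1, 45.8% came from 5 cells, and without cells over 2 times the median depth its log2 ratio was 0.44. Rsad2 had 30.2 and 34.2 CPM, and 5 cells held 37.8% of its vancomycin UMIs and 82.2% of its control UMIs, with 129 of 230 in 1 control cell. Cmpk2 had 11.5 and 11.8 CPM, and 5 cells held 50.5% and 77.2%. In control microglia 5 cells also held 50.4% of the Ifit3, 44.7% of the Ifit2, 43.8% of the Ifit3b and 37.7% of the Ifit1 UMIs, against 20.3%, 18.9%, 29.1% and 32.7% in vancomycin microglia.

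All 4 signalling genes were higher in vancomycin microglia. Irf7 had 198 and 97.0 CPM (2.04, 1.87 to 2.24), Stat2 had 66.8 and 30.8 CPM (2.17, 1.85 to 2.55), Irf9 had 63.1 and 50.1 CPM (1.26, 1.10 to 1.44) and Usp18 had 79.6 and 24.5 CPM (3.24, 2.73 to 3.86). Among the sensors, Zbp1, which binds Z-form nucleic acid and can trigger cell death, had 99.7 and 36.1 CPM (2.76, 2.39 to 3.19). Ifih1 and Dhx58, both sensors of double-stranded RNA, had 75.5 and 58.8 CPM and 32.5 and 21.1 CPM. Ifi204, a DNA-binding sensor, had 143 and 138 CPM, and its interval of 0.952 to 1.13 held 1. Of the other members, Rtp4 had 115 and 32.7 CPM (3.52, 3.04 to 4.09), Ifi27l2a had 587 and 333 CPM, and Slfn5 had 65.4 and 27.4 CPM. Over the 8 sensors and signalling genes the ratio ran from 1.04 for Ifi204 to 3.24 for Usp18.

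**Figure D3:**
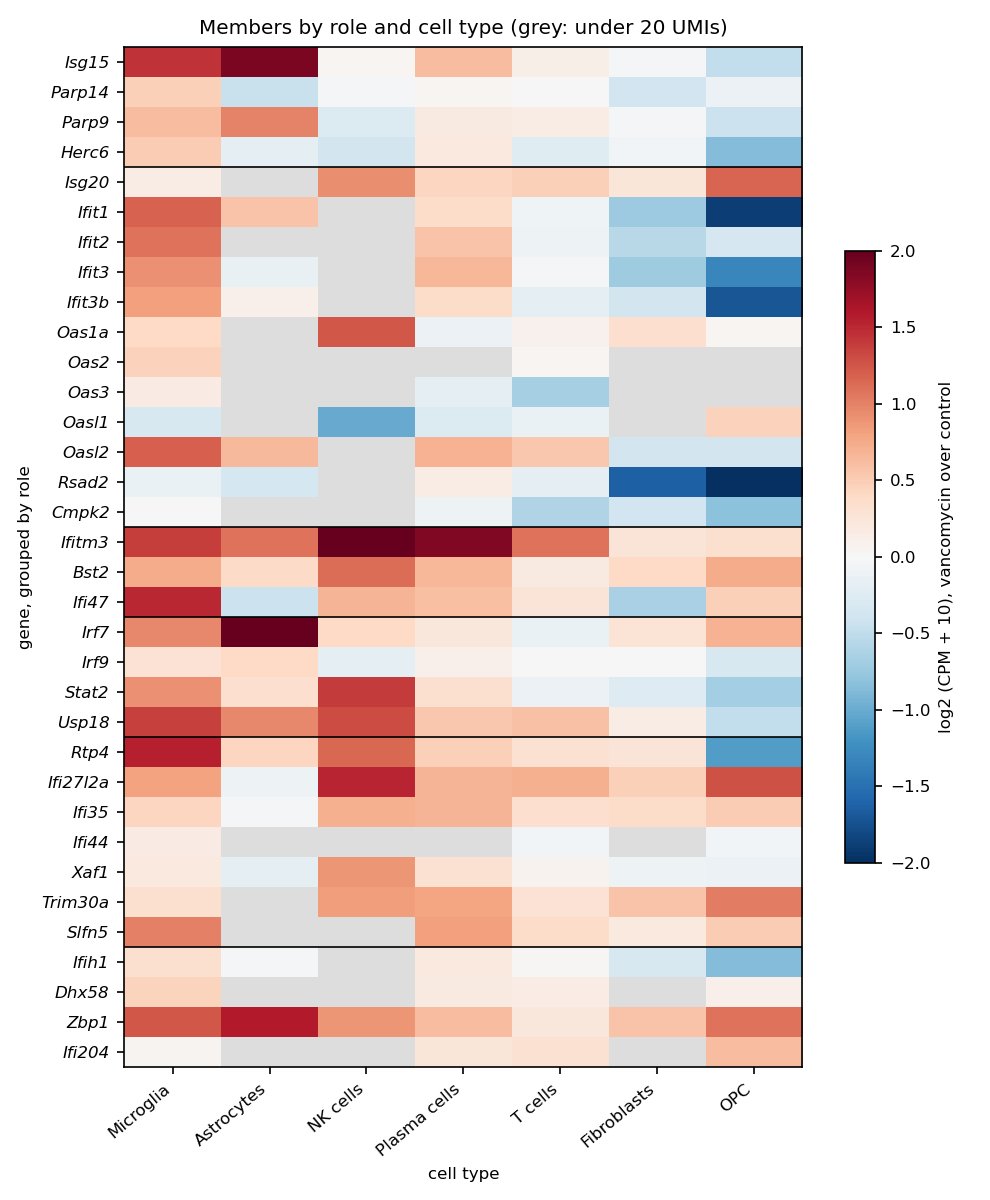
Log2 ratio of CPM + 10, vancomycin over control, for each gene (rows, grouped by role) in the 7 compared cell types (columns), with genes under 20 UMIs over both libraries in grey. Microglia show ratios above 0 in most rows, and oligodendrocyte precursor cells (OPC) ratios below 0 for Ifit1, Ifit3, Ifit3b and Rsad2. The values of 4 genes in plasma cells and 4 in OPC rest on 0 control UMIs and depend on the added 10 CPM.

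The other 5 compared types had fewer control cells. In NK cells (97 vancomycin and 77 control) the summed level was 22.5 and 15.2 per 10000, and 7 of 20 measured members passed 2-fold upward and 1 downward, where 3.87% of measured genes were higher and 5.51% lower. The 7 were Ifitm3, Ifi27l2a, Stat2, Usp18, Oas1a, Rtp4 and Bst2. Bst2 had 253 and 111 CPM (2.27, 1.59 to 3.29), with 45 control UMIs. Control UMIs were 1 for Ifitm3, 4 for Oas1a, 6 for Stat2, 7 for Usp18 and 12 each for Ifi27l2a and Rtp4. The lower one was Oasl1 with 18.4 and 47.1 CPM from 8 and 19 UMIs. In the vancomycin NK cells 82.2% of the Ifi27l2a UMIs came from 5 cells. In plasma cells (735 and 87) the level was 15.5 and 9.13 per 10000, and 1 of 32 measured members passed 2-fold upward and 0 downward, where 2.01% of measured genes were higher and 0.812% lower. That member was Ifitm3 with 158 and 36.4 CPM (4.34, 3.41 to 5.60), with 61.8% of its control UMIs in 5 cells. In astrocytes (157 and 52) the level was 25.2 and 16.0 per 10000, and 4 of 22 measured members passed 2-fold upward and 0 downward, where 7.63% of measured genes were higher and 4.56% lower. Isg15 had 228 and 54.8 CPM in astrocytes, with 71.1% of its vancomycin UMIs in 5 cells, and Ifitm3 had 905 and 421 CPM. Irf7 and Zbp1, the others past the fold, had 3 and 2 control UMIs. In fibroblasts (235 and 104) the level was 39.7 and 37.4 per 10000, and 0 of 28 measured members passed 2-fold upward and 1 downward, where 2.72% of measured genes were higher and 2.34% lower. The lower one was Rsad2 with 11.6 and 57.1 CPM, and 73.0% of its control UMIs came from 5 cells.

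Oligodendrocyte precursor cells (985 vancomycin and 50 control cells) went the other way. Their summed level was 22.2 and 29.5 per 10000 (0.752, 0.712 to 0.794), while the share of high cells was 12.6% (10.6 to 14.8) and 10.0% (3.33 to 21.8). The order of these shares turned under other settings, with 13.2% and 14.3% after thinning to 1000 UMIs, 5.89% and 10.0% over 31 genes, 23.9% and 30.0% at a threshold of 20 per 10000, and 2.64% and 8% at 100. Of 32 measured members, 4 passed 2-fold upward and 5 downward, where 4.14% of measured genes were higher and 2.07% lower. Ifit1 had 79.0 and 319 CPM (0.248, 0.207 to 0.297), Ifit3 had 113 and 293 CPM, Ifit3b had 68.6 and 248 CPM, Rsad2 had 15.9 and 102 CPM, and Rtp4, whose product helps receptors to reach the membrane, had 110 and 250 CPM. In the control library 5 cells held 57.1% of the Ifit1 UMIs, 82.5% of the Ifit3 UMIs and 74.0% of the Rsad2 UMIs, and the 5 high control cells held 60.1% of all member UMIs. Of the 4 higher members, Ifi27l2a had 187 and 71.6 CPM, with 94.3% of its control UMIs in 5 cells, and Zbp1 had 24.2 and 6.14 CPM from 177 and 3 UMIs. Isg20 (91 UMIs) and Trim30a (76 UMIs) had 0 UMIs in the control, which puts them at least 2.03-fold and 1.69-fold higher against a floor of 3 counts over the control cells. With such genes at that floor, 2 members passed 2-fold upward and the median log2 ratio was -0.17, against -0.12 without it.

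The summed level varied from cell to cell more than between the libraries. In vancomycin T cells the median cell had 42.8 member UMIs per 10000, the 90th percentile was 129 and the highest had 555. In control T cells these values were 25.9, 97.3 and 645. In microglia the median, the 90th percentile and the maximum were 23.1, 77.6 and 366 in the vancomycin library and 11.0, 45.9 and 375 in the control library. The distributions overlapped over almost their whole range, and the vancomycin curves lay to the right of the control curves in both types. High cells held 74.1% and 62.6% of the member UMIs of vancomycin and control T cells, and 60.6% and 45.0% of those of microglia. The threshold cut through a continuous range, since 16.8% and 11.5% of T cells, and 13.9% and 5.03% of microglia, lay between 40 and 60 per 10000.

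**Figure D4:**
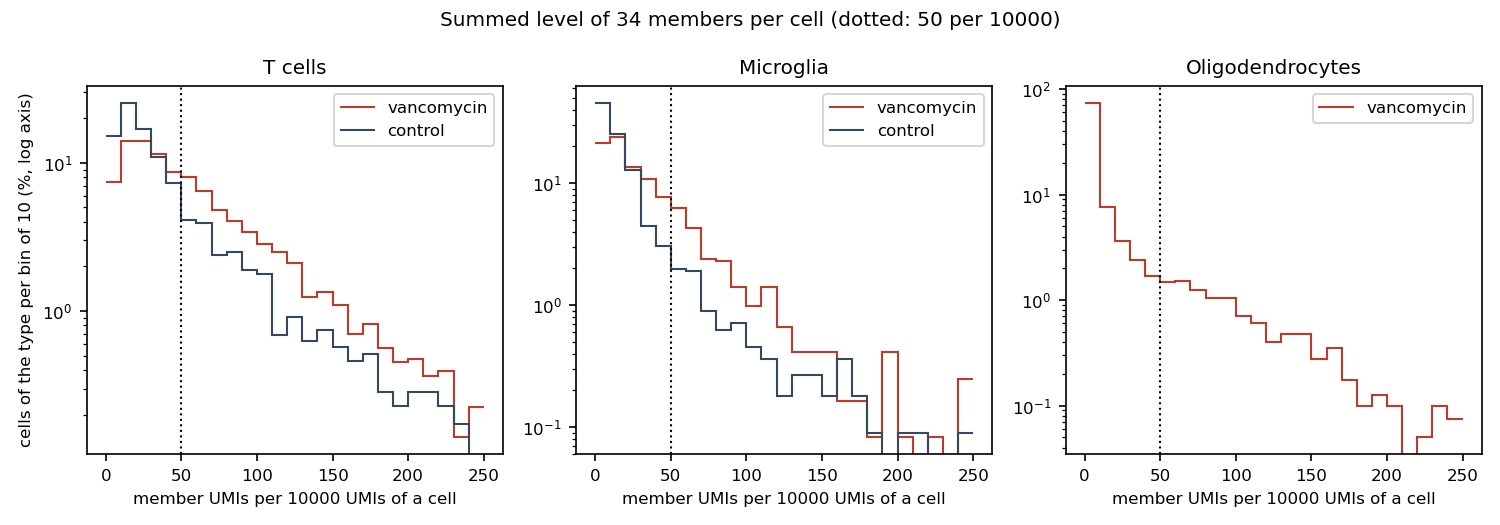
Distribution of the summed level of the 34 genes per cell, in bins of 10 UMIs per 10000 up to 250, as a percent of the cells of the type on a log axis, with the threshold of 50 dotted. Vancomycin T cells and microglia lie to the right of control cells, and oligodendrocytes (vancomycin library only) have most cells in the first bin and a long tail.

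To see which genes marked the high cells, each member was set aside in turn and cells were called high by the other 33. In vancomycin T cells Ifit3b had 65.4 CPM in high cells and 2.44 CPM in other cells, 26.8-fold higher. Rsad2 was 15.1-fold, Ifit3 14.2-fold, Oasl1 13.3-fold and Ifit1 12.5-fold higher in the high cells, and Oas2 had all but 1 of its 56 UMIs there. Control T cells had much the same order at the top, with Rsad2 (29.7-fold), Ifit3 (28.1-fold), Ifit3b (27.6-fold) and Ifit1 (20.9-fold). At the other end in vancomycin T cells stood Irf9 (1.59-fold), Ifi35 (1.81-fold), Ifi47 (1.84-fold), Ifitm3 (1.99-fold) and Ifi27l2a (2.19-fold). The threshold was the same whichever gene was set aside, so the cells called high differed from gene to gene. Ifi27l2a carried the most UMIs in T cells, so setting it aside lowered the sums most. For the other genes Ifi27l2a helped to call the high cells, so its fold is not directly comparable with theirs. Whether it separated high from other cells less than they did was not tested.

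In vancomycin microglia Ifit1 had 114 CPM in cells called high by the other genes and 2.28 CPM in the rest, and Rsad2 was 48.7-fold higher, followed by Cmpk2 (20.4-fold) and Ifit2 (15.6-fold). In control microglia Rsad2 (150-fold), Cmpk2 (79.8-fold) and Oas3 (46.8-fold) led, and 5 cells held 82.2%, 77.2% and 32.3% of their UMIs. Irf9 had 54.8 CPM in high and 66.1 CPM in other vancomycin microglia, and 80.1 and 46.9 CPM in control microglia. Of the 34 genes in T cells and microglia of both libraries, this was the only case of a lower level in high than in other cells. High cells had a median of 11 and 13.5 distinct members detected in vancomycin and control T cells, against 5 and 6 in the other cells. In microglia the medians were 19 and 13 in high cells against 6 and 3 in the others. These counts follow in part from the rule for high cells, which sums the same members. High vancomycin microglia were deeper (median 8771.5 UMIs) than the other vancomycin microglia (5958), while high control microglia had 4491 UMIs and the others 4982.

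**Figure D5:**
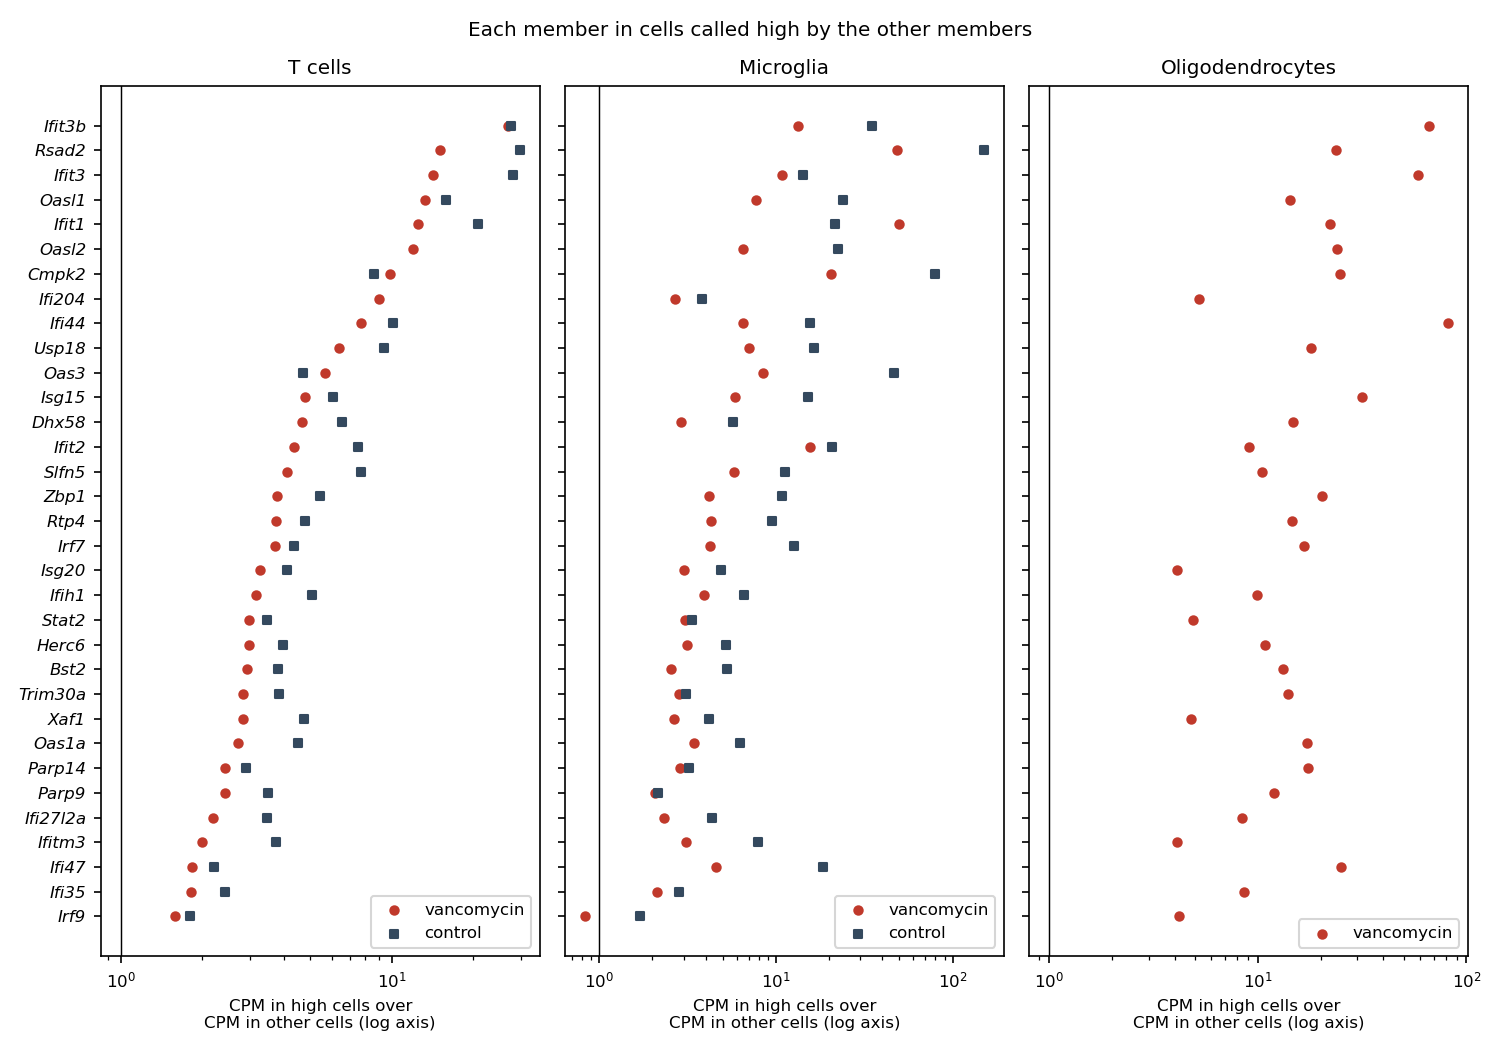
Level of each member in cells called high by the other 33 members over its level in the remaining cells of the type, on a log axis, for members with at least 50 UMIs and more than 3 UMIs in the remaining cells. Ifit and Oas family genes, Rsad2 and Cmpk2 lie to the right in T cells and microglia, and Irf9 lies furthest left there, at 0.83 in vancomycin microglia. Oas2 is not drawn.

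Oligodendrocytes, the myelinating cells, could be described in the vancomycin library only. Their median cell had 3.31 member UMIs per 10000 and 14.2% had 0, yet 422 of 4000 cells (10.6%, 9.61 to 11.5) were high. High cells had a median of 21 distinct members against 2 in the others, which follows in part from the rule that called them high. They were also deeper, with a median of 13122 UMIs against 9488. Ifit3b was 66.3-fold, Ifit3 58.5-fold, Isg15 31.7-fold and Ifi47 25.1-fold higher in cells called high by the other genes, and the lowest ratios were 4.09 for Ifitm3 and 4.12 for Isg20. Over 31 genes 7.38% of oligodendrocytes were high. Outside the list, where 1.92% of 14516 measured genes were at least 2-fold higher in the high cells, Gbp2, a guanylate-binding protein, had 719 CPM in high and 12.2 CPM in other oligodendrocytes. H2-T23, a nonclassical class I gene, had 2738 and 125 CPM, Iigp1 had 1785 and 78.5 CPM, and Psmb8, an immunoproteasome subunit, had 1395 and 80.7 CPM. The ligand of PD-1, Cd274, had 249 and 12.2 CPM. Lowest in the high cells were genes of other cell types. Among them Iglv1, an immunoglobulin gene, had 5.49 CPM in high and 369 CPM in other oligodendrocytes. The erythroid marker Hbb-bs had 148 and 2166 CPM, and the hormone cell marker Chga 8.75 and 208 CPM. The part of such RNA in the contrast was not tested. Of 19 measured interferon gamma targets 17 were at least 2-fold higher in the high oligodendrocytes (median log2 ratio 3.56). Of 27 further interferon-stimulated genes 20 were (median 1.41). Gbp3 stands in both lists, and which interferon was at work was not tested. In high vancomycin precursor cells 18 of 18 and 24 of 27 genes of these lists were at least 2-fold higher, where 3.32% of measured genes were.

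In high T cells and microglia a part of the same lists was higher. In vancomycin and control T cells 6 of 18 and 9 of 16 interferon gamma targets, and 10 of 27 and 16 of 25 further interferon-stimulated genes, were at least 2-fold higher in the high cells, where 0.764% and 1.01% of measured genes were. Iigp1 had 121 CPM in high and 30.5 CPM in other vancomycin T cells, and Cxcl10, a chemokine that attracts T cells, 206 and 59.1 CPM. Ifi213 and Gbp6 were also at least 2-fold higher in the high T cells of both libraries. In vancomycin and control microglia 12 and 15 of 18 gamma targets, and 12 and 19 of 27 further genes, were at least 2-fold higher, where 0.948% and 1.76% of measured genes were.

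In the other vancomycin types, too, some gamma targets outside the list were higher in the cells called high by the 34 genes. They were at least 2-fold higher for 12 of 15 genes in fibroblasts, where 1.23% of measured genes were, for 11 of 18 in type 1 dendritic cells (0.982%) and for 12 of 18 in type 2 dendritic cells (1.16%). In mature migratory dendritic cells the count was 12 of 18 (8.67%), in endothelial cells 11 of 14 (3.38%), in border-associated macrophages 7 of 16 (3.39%) and in plasma cells 13 of 18 (7.08%). The share of further interferon-stimulated genes was lower in each of these types, with 4 of 23 in fibroblasts, 6 of 27 in type 1 and 11 of 27 in type 2 dendritic cells. It was 11 of 20 in mature migratory dendritic cells, 4 of 13 in endothelial cells and 6 of 23 in border-associated macrophages. In plasma cells it was 18 of 26, closest to the share of gamma targets.

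Between the libraries, targets outside the list were also higher in vancomycin microglia. Of 18 interferon gamma targets 9 passed 2-fold upward in vancomycin microglia and 0 downward, 18 intervals lay above 1 and the median log2 ratio was 1.07. Cxcl9, a chemokine that T cells follow, had 708 and 186 CPM, Psmb8 had 493 and 282 CPM, Iigp1 had 225 and 42.2 CPM, and Socs1, an inhibitor of the receptor kinases, had 74.3 and 10.4 CPM. Of 27 further interferon-stimulated genes 2 passed 2-fold upward and 0 downward, with 22 intervals above 1 and 1 below. They were Apobec3 with 106 and 39.9 CPM and Ifi213 with 59.0 and 22.6 CPM. Ly6e, a membrane protein of this list, had 1761 and 1529 CPM and Lgals3bp 559 and 279 CPM.

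Upstream of these targets the microglial values were mixed. Of 9 transcription factors and feedback genes 2 passed 2-fold upward, Irf1 and the Socs1 already given, and 2 downward. Irf1 had 397 CPM in vancomycin and 123 CPM in control microglia, against 264 and 563 CPM for Irf5 and 476 and 1011 CPM for Socs3. Of 8 receptor and kinase genes 0 passed the fold, with 2 intervals above and 4 below 1. The receptor subunits Ifnar1 and Ifnar2 had 55.2 and 97.3 CPM, and 274 and 256 CPM. Of 10 sensors and adaptors 1 was lower, Ticam1, the adaptor of Tlr3, with 23.1 and 70.5 CPM.

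In T cells 1 of 18 interferon gamma targets and 1 of 27 further genes passed 2-fold upward and 0 downward. Cxcl9 had 797 vancomycin and 2 control UMIs, and Apobec3, a cytidine deaminase, had 166 and 47.2 CPM (3.52, 3.20 to 3.88). Psmb8 had 915 and 664 CPM and Psmb9 437 and 236 CPM. Cxcl9 is a gene of macrophages and dendritic cells, and dendritic cell markers inside the T cell gate took 1.21 and 0.445 (type 1) and 0.685 and 0.424 (type 2) UMIs per 10000, with 7 of 8 markers of each higher in the vancomycin library. Their part in the Cxcl9 value was not tested. Irf8, a factor of dendritic and other myeloid cells that also counts among the type 1 markers, had 97.5 and 33.0 CPM. The interferon gamma receptor subunit Ifngr1 had 595 and 1445 CPM (0.412, 0.401 to 0.422), the 1 receptor gene of 8 at least 2-fold lower, and Ifnar1 had 85.3 and 145 CPM.

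Type I interferon transcripts were almost not captured. Each interferon alpha gene searched had 0 UMIs in both libraries, a count that allows up to 3 UMIs of a gene in a library. Ifnb1 had 21 UMIs in 3 vancomycin cells and 10 UMIs in 6 control cells, and 4 of those 6 were microglia. Interferon gamma was captured in more cells, with 3502 UMIs in 1326 of 15726 vancomycin cells and 1051 UMIs in 334 of 4108 control cells. T cells were 1009 and 298 of the cells with such a UMI. In T cells its level was 144 CPM in the vancomycin and 92.3 CPM in the control library (1.57, 1.45 to 1.69). Transcription of interferon alpha below that limit was not detectable at this depth.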

How the data were processed

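For each library the authors deposited a matrix of UMI counts, not normalized, made with Cell Ranger 7.2.0 (vancomycin) and 6.0.1 (control), per the file headers, from 5′ libraries of v2 chemistry. The submitters' processing notes name mm10 and Partek. No header or label says whether introns were counted. Barcodes under 500 UMIs, under 200 genes or over 20% mitochondrial UMIs were removed. A cell entered 1 of 21 types when it had at least 3 of the type's 8 markers and at least 2 more than of any other type. Cells without that lead (12.0% of vancomycin and 6.06% of control cells) were left out, and no doublet caller was run. UMIs were summed per type, and 7 types with at least 50 cells in each library were compared as log2 ratios of CPM + 10. A gene was measured in a type with at least 20 UMIs over both libraries. Intervals are 95% exact binomial (Clopper-Pearson) or exact conditional Poisson intervals and cover counting error only. Values are named for the 6 members of highest level and up to 6 a direction with the largest ratio in T cells and microglia, for members past 2-fold and those of highest level in other types, and for the 6 that separate high cells most and least. Further genes that show a role were named after their values were seen. The members, gene lists, gates and thresholds were chosen with earlier results of these data known. The alternatives varied the gate, cell filter, depth, scaling, pseudocount, threshold and members summed. TMM and DESeq2 factors, used for scaling only, lowered log2 ratios by 0.10 and 0.11 in T cells and by 0.14 and 0.15 in plasma cells, and raised them by 0.10 and 0.11 in NK cells. The interval code was tested on simulated data. Positions came from RefSeq's GRCm38.p6 tables and the annotation, in which 32158 of 32285 gene IDs (99.6%) were found. Tools were scipy 1.17.1, pandas 2.3.3 and numpy 2.4.6 in Python 3.11.15, matplotlib 3.10.9 for plots, and edgeR 4.0.16 and DESeq2 1.42.0 in R 4.3.3. One gene of the pathway lists is counted in its list but not reported here.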

Additional observations from a re-analysis of the deposited data

Results flagged for a closer look

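Ifit1 differed in direction between cell types, with a log2 ratio of vancomycin over control of 1.18 in microglia and -1.89 in oligodendrocyte precursor cells. Rtp4 did too, with 1.15 in NK cells and 1.55 in microglia against -1.12 in oligodendrocyte precursor cells. Each was at least 2-fold in both directions with a counting interval that left out 1, but with 1 library per group the difference between cell types was not tested. The precursor values rest on 50 control cells, 5 of which held 57.1% of the Ifit1 and 42.6% of the Rtp4 UMIs, and the NK value of Rtp4 on 34 vancomycin and 12 control UMIs.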

How the results depend on the processing

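The log2 ratio of the summed level in T cells was 0.40, and it was 0.50 without cells over 2 times the median depth, 0.31 with TMM scaling, 0.30 with DESeq2 size factors, 0.51 with every cell weighted equally, 0.12 without Ifitm3, Bst2 and Ifi27l2a, and -0.21 less the median of the other compared types. In microglia it was 0.88 and, in the same order, 0.98, 0.82, 0.81, 0.78, 0.81 and 0.39. The count of members past 2-fold upward in T cells, 1 as reported, was 0 without deep cells, 0 with DESeq2 size factors, 0 with equal weights, 0 with 50 CPM added, 0 less the median of the other types and 2 with 1 CPM added. In microglia, 10 as reported, it was 2 with 50 CPM added and 6 less that median. At thresholds of 20 and 100 per 10000 the share of high cells was 78.5% and 17.3% in vancomycin and 59.5% and 9.28% in control T cells, and 54.5% and 5.92% in vancomycin and 29.4% and 2.96% in control microglia. Without the 3 genes it was 12.4% and 9.05% in vancomycin and control T cells and 8.55% and 3.77% in vancomycin and control microglia. After thinning to 1000 UMIs it was 46.9% and 29.9% in T cells and 26.7% and 11.3% in microglia, again vancomycin and control, and without deep cells it was 19.6% in vancomycin microglia.

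Values that changed sign were the fibroblast sum (-0.042 without deep cells, -0.23 without the 3 genes, -0.53 less the median of the other types) and Oasl1 in microglia (0.44 without deep cells). Less the median of the other types, T cell values turned for Isg15 (-0.21), Bst2 (-0.51), Ifi47 (-0.28), Ifitm3 (-0.14), Usp18 (-0.16) and Rsad2 (0.46), as did Isg20 in plasma cells (-0.14), Ifitm3 in oligodendrocyte precursor cells (-0.91), astrocytes (-0.14) and fibroblasts (-0.98) and Ifi27l2a in fibroblasts (-0.28). The cause was not tested. A gate with 1 more marker and no filter on cells changed the sign of none of these results, and moved no reported count by over 1.5 times. No paired analysis was possible because each group is 1 library, and for the same reason no replicate could be left out. The 50 control precursor cells, 52 control astrocytes and 77 control NK cells limit what those comparisons can show.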
